A study of Mus musculus with 16 samples.

Results

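Klf4, Klf5 and Elf3 encode transcription factors of the gut lining, and their neighbourhoods in the mouse genome were described here by acetylation of lysine 27 on histone H3 (H3K27ac), a mark of active promoters and enhancers. The loci were fixed genome windows on build mm9, chosen by gene and not by the signal: chr4:55510000-55580000 for Klf4, chr14:99670000-99740000 for Klf5 and chr1:137130000-137180000 for Elf3. They held 175 of the 369142 peaks in the 8 deposited lists, with 33 peaks at Klf4, 71 at Klf5 and 71 at Elf3. Chromatin immunoprecipitation with sequencing was done on sorted small-intestinal cells of mice of mixed C57BL/6 CD1 strain, with 250000 cells per library. The 4 groups were gut epithelium of E12.5 embryos and of E14.5 embryos (E for days of embryonic life), adult Lgr5-positive intestinal stem cells (ISC) and adult enterocytes, with 2 libraries each. Embryonic cells and enterocytes were sorted for the epithelial surface protein EpCAM and against CD31 and CD45, and ISC for high green fluorescence from the Lgr5-EGFP reporter. Both adult cell types came from Lgr5EGFP-Cre-ERT males of postnatal day 60, and no genotype or sex is given for the embryos. The enterocyte sort used no enterocyte-specific protein, so other epithelial cells could pass it. Each library was compared with its own input by the authors, who describe the pairs as biological duplicates.

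Krüppel-like factors such as KLF4 and KLF5 bind GC-rich and CACCC-type DNA through zinc fingers. In the small intestine KLF5 is best known from dividing crypt cells, and KLF4 from cells that have stopped dividing, goblet cells among them. ELF3 belongs to the ETS family, which binds a GGAA core, and is restricted to epithelia, where it is known for its part in maturation of the intestinal lining. In a table of genes on build GRCm38.p6, the nearest protein-coding neighbours include Rad23b for Klf4, Pibf1 and Dis3 for Klf5, and Gpr37l1 and Rnpep for Elf3. No gene positions on mm9 were used here. The start sites of the genes were therefore not placed among the peaks, and the peaks were not assigned to genes.

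The promoters are shown because the factors' own families bind the short motifs in them. RefSeq sequences on build GRCm38.p6 were matched for 2 of the 3 genes, Klf4 and Elf3, and run from 250 bases before the start site to 50 bases after it. Capitals mark a CACCC box (CACCC or GGGTG) or a GC box (CCGCCC or GGGCGG), searched on both strands, and both promoters are written 5′ to 3′ along their gene.
Klf4 promoter, chr4:55532426-55532725, minus strand: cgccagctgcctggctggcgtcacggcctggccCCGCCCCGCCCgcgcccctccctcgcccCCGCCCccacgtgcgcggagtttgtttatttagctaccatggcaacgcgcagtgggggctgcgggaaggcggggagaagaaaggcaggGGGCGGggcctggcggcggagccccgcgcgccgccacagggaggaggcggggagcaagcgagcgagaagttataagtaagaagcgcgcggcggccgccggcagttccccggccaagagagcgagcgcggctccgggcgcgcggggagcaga
Elf3 promoter, chr1:135258423-135258722, minus strand: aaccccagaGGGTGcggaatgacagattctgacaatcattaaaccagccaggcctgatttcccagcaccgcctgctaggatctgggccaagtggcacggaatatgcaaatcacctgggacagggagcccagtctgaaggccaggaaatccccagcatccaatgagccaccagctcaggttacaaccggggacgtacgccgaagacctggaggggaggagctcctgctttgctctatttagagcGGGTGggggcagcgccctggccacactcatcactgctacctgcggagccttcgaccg
The Klf4 promoter was 74.3% G and C, and the Elf3 promoter 59.0%, against a median of 52.7% over 32851 mouse promoters of the same length. The Klf4 promoter held 4 GC boxes and no CACCC box. At least 1 GC box was found in 35.7% of all promoters, and 4 or more in 5.49%. The Elf3 promoter was the reverse case, with 2 CACCC boxes and no GC box. At least 1 CACCC box occurred in 57.5% of all promoters, and 2 or more in 25.7%. The ETS core (GGAA or TTCC, not capitalised) occurred 2 times in the Klf4 promoter and 4 times in the Elf3 promoter, and 96% of all promoters held it. These matches are letters only, and their relation to the peaks was not tested.

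The loci differed in how much of them was acetylated, and in how this changed between groups. At Klf4 the peaks covered 4.05 to 6.15 kb of the window in the 8 libraries, most of it in a short core. Klf5 and Elf3 carried broad domains, with 14.2 to 25.5 kb and 13.8 to 28.6 kb covered. At Klf4 none of the 4 comparisons was called for the locus or for any 10-kb bin of it, except that the locus was called in enterocytes vs ISC and in adult vs embryo after scaling by total covered length. At Klf5, an element at the left of the window was longest in E14.5 and ISC and nearly absent from enterocytes, while an element at the right was long in the embryo and short or absent in adult cells. At Elf3, a peak at the right edge was longer in all 4 adult libraries than in any embryonic library.

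The unit of measurement was the length covered by peaks. ChIP libraries held 34.6 to 54.6 M tags and inputs 35.0 to 38.8 M. The lists held 35614 to 52510 peaks that covered 38.8 to 76.1 Mb, least in both enterocyte lists and most in ISC replicate 2. A library with more covered bases overall can also have more at a locus, and the part of this in each difference was not tested. At Klf4 the enterocyte libraries, with the fewest covered bases, had the highest group mean (5.77 kb). The lists hold no read counts per region, and no counting error is given. Precision rests on 2 libraries a group.

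The Klf4 window had the least covered length in every library. In the order replicate 1 and replicate 2, its peaks covered 4.05 and 6.08 kb in the E12.5 libraries, 5.00 and 4.20 kb in the E14.5 libraries, 4.20 and 5.98 kb in the ISC libraries, and 6.15 and 5.40 kb in the enterocyte libraries. The libraries of every group overlapped in range with those of at least 1 other group. In the same group order, the means were 5.07 ± 1.44, 4.60 ± 0.564, 5.09 ± 1.25 and 5.77 ± 0.532 kb (SD, n = 2 each). In order of mean the groups ran E14.5, E12.5, ISC, enterocytes, and every step was smaller than at least 1 of the SDs of the groups it parts. Against all 70-kb windows that 2 or more libraries had a peak in, the Klf4 window ranked between the 72.7 and 87.4 percentile in covered length.

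The Klf5 window was covered over 14.6 and 18.4 kb in the E12.5 libraries, 22.7 and 21.0 kb in the E14.5 libraries, 19.8 and 25.5 kb in the ISC libraries, and 15.7 and 14.2 kb in the enterocyte libraries. Means were 16.5 ± 2.69, 21.8 ± 1.14, 22.6 ± 4.08 and 15.0 ± 1.07 kb (SD, n = 2 each). Both E14.5 libraries and both ISC libraries lay above all 4 libraries of E12.5 and enterocytes. E12.5 and enterocytes overlapped each other, and so did E14.5 and ISC. In percentile among 70-kb windows, Klf5 stood between 97.3 and 98.7 in all libraries.

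The Elf3 window, which is 50 kb wide, had the largest covered share of the 3. Its peaks covered 13.8 and 19.01 kb in the E12.5 libraries, 24.4 and 23.6 kb in the E14.5 libraries, 24.4 and 28.6 kb in the ISC libraries, and 17.7 and 18.4 kb in the enterocyte libraries. Means were 16.4 ± 3.66, 24.0 ± 0.547, 26.5 ± 2.95 and 18.1 ± 0.477 kb (SD, n = 2 each). The order was that of Klf5 except for its lower end: E14.5 and ISC were above every library of E12.5 and enterocytes, and the enterocyte libraries lay within the range of E12.5. From 27.7% to 57.2% of the window was covered, and it ranked between the 98.8 and 99.8 percentile of 50-kb windows.

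**Figure D1:**
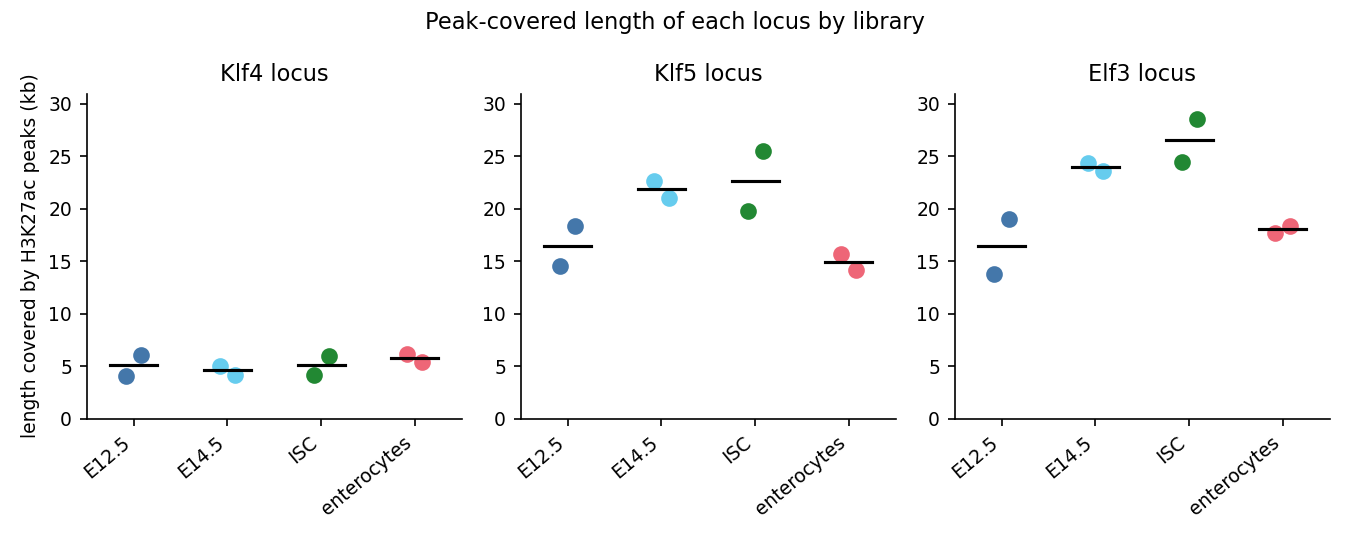
Length covered by H3K27ac peaks (kb, vertical axis) at the Klf4, Klf5 and Elf3 loci in the 4 groups, 1 point per library, with lines at the group means. Klf4 stays between 4.05 and 6.15 kb, while at Klf5 and Elf3 the E14.5 and ISC libraries lie above those of E12.5 and enterocytes.

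The differences for whole loci were tested with limma on log2(covered bp + 500) over all windows of the same width, with 4 group means and Benjamini-Hochberg adjustment. None of the 12 tests (3 loci, 4 comparisons) passed an adjusted p of 0.05, and 3 of them had an unadjusted p below it. Among 70-kb windows, 16.9% were called for E14.5 vs E12.5, 29.3% for ISC vs E14.5, 39.9% for enterocytes vs ISC and 60.2% for adult vs embryo. For 50-kb windows the same shares were 17.5%, 29.5%, 39.6% and 61.1%. The median window itself was lower in enterocytes than in ISC, by -0.51 on the log2 scale for 70 kb and -0.48 for 50 kb. For adult vs embryo these medians were -0.37 and -0.35, so differences are also given relative to them.

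For E14.5 vs E12.5 the Elf3 difference was 0.55 on the log2 scale (95% confidence interval 0.11 to 1.00, adjusted p = 0.0969) and that of Klf5 0.41 (-0.059 to 0.87, adjusted p = 0.231). Without E12.5 replicate 2, the longer of the E12.5 pair, Elf3 passed the test (0.77, adjusted p = 0.0409). The Klf4 difference was -0.11 (-0.73 to 0.51, adjusted p = 0.904). For ISC vs E14.5 the values were 0.12 at Klf4, 0.040 at Klf5 and 0.14 at Elf3 (adjusted p = 0.816, 0.953 and 0.672).

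For enterocytes vs ISC the Klf5 difference was -0.57 (-1.04 to -0.11, adjusted p = 0.0559) and that of Elf3 -0.54 (-0.98 to -0.091, adjusted p = 0.0604). Relative to the median window these are -0.066 and -0.053, close to the difference of a typical window. Klf4 went the other way, at 0.18 (-0.44 to 0.80, adjusted p = 0.669), or 0.69 relative to the median. When each library was scaled by its total covered length, Klf4 passed the test (0.82, adjusted p = 0.00143) and Klf5 and Elf3 turned positive (0.095 and 0.13, adjusted p = 0.540 and 0.468). Klf5 passed without ISC replicate 1 (-0.75, adjusted p = 0.0304) and without E12.5 replicate 2 (-0.57, adjusted p = 0.04999). Elf3 passed without either E12.5 library (-0.54, adjusted p = 0.0272 without replicate 1 and 0.0267 without replicate 2).

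For adult vs embryo the 3 loci were at 0.16 (-0.28 to 0.59), -0.043 (-0.37 to 0.29) and 0.14 (-0.17 to 0.46) for Klf4, Klf5 and Elf3 (adjusted p = 0.478, 0.797 and 0.366). Relative to the median window these are 0.52, 0.32 and 0.49. With scaling, Klf4 and Elf3 passed the test at 0.32 each (adjusted p = 0.00795 and 0.0165), and Klf5 turned to 0.13 (adjusted p = 0.140). An exact two-sided permutation test of 4 adult against 4 embryonic libraries gave an adult minus embryonic difference of 0.597 kb at Klf4 (p = 0.314), -0.356 kb at Klf5 (p = 0.914) and 2.07 kb at Elf3 (p = 0.629). Its smallest possible p is 0.0286.

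**Figure D2:**
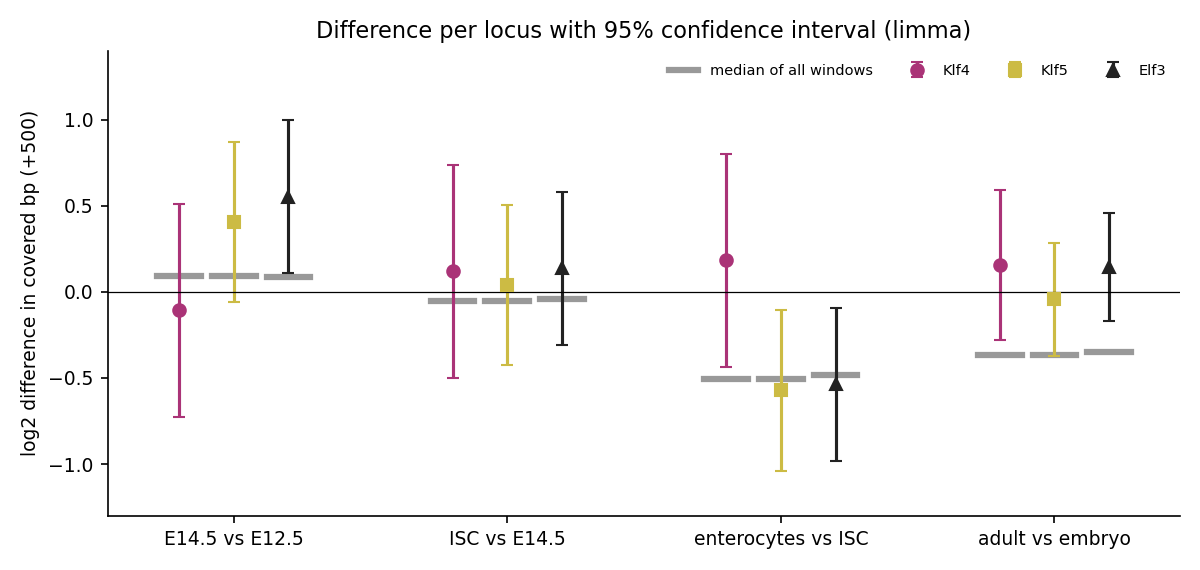
Log2 difference in covered bp (after adding 500 bp) for Klf4, Klf5 and Elf3 in 4 comparisons, with 95% confidence intervals from limma, and grey lines at the median of all windows of the same width. For enterocytes vs ISC, Klf5 (-0.57) and Elf3 (-0.54) lie near the medians (-0.51 and -0.48), and Klf4 (0.18) lies above.

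Where a locus changed was followed in 10-kb bins and in elements, which are peaks of the 8 lists joined when within 1 kb of each other. Of the 19 bins, 14 held a peak and 13 were tested. In E14.5 vs E12.5, 2 bins were called higher and 0 lower (11.8% and 6.51% of all bins, adjusted p under 0.05 in limma). The count higher fell without either E14.5 or either enterocyte library and rose without E12.5 replicate 2. In ISC vs E14.5, 2 were higher and 1 lower (14.2% and 16.2%). The count higher fell without any 1 of the E14.5 or enterocyte libraries or ISC replicate 2. The count lower fell without any 1 of the E12.5, E14.5 or enterocyte libraries. In enterocytes vs ISC, 2 were higher and 2 lower with scaling, against 5560 and 9788 of all 41748 bins. In the main fit, 0 were higher and 5 lower (5.46% and 30.9%). The count lower fell without any 1 embryonic library, ISC replicate 2 or either enterocyte library. In adult vs embryo, 6 were higher and 3 lower with scaling, against 11276 and 16010 of all 41748 bins. In the main fit, 2 were higher and 3 lower (22.3% and 38.6%). The count higher rose without E12.5 replicate 2 or ISC replicate 1. Of these 15 calls, 7 held under all 14 alternative settings, leaving out each library included. Main-fit counts this small are near what the background gives, and the bins are of interest for their place. Calls over all bins also changed with scaling and with a library left out, so those counts alone say little of the loci.

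**Figure D3:**
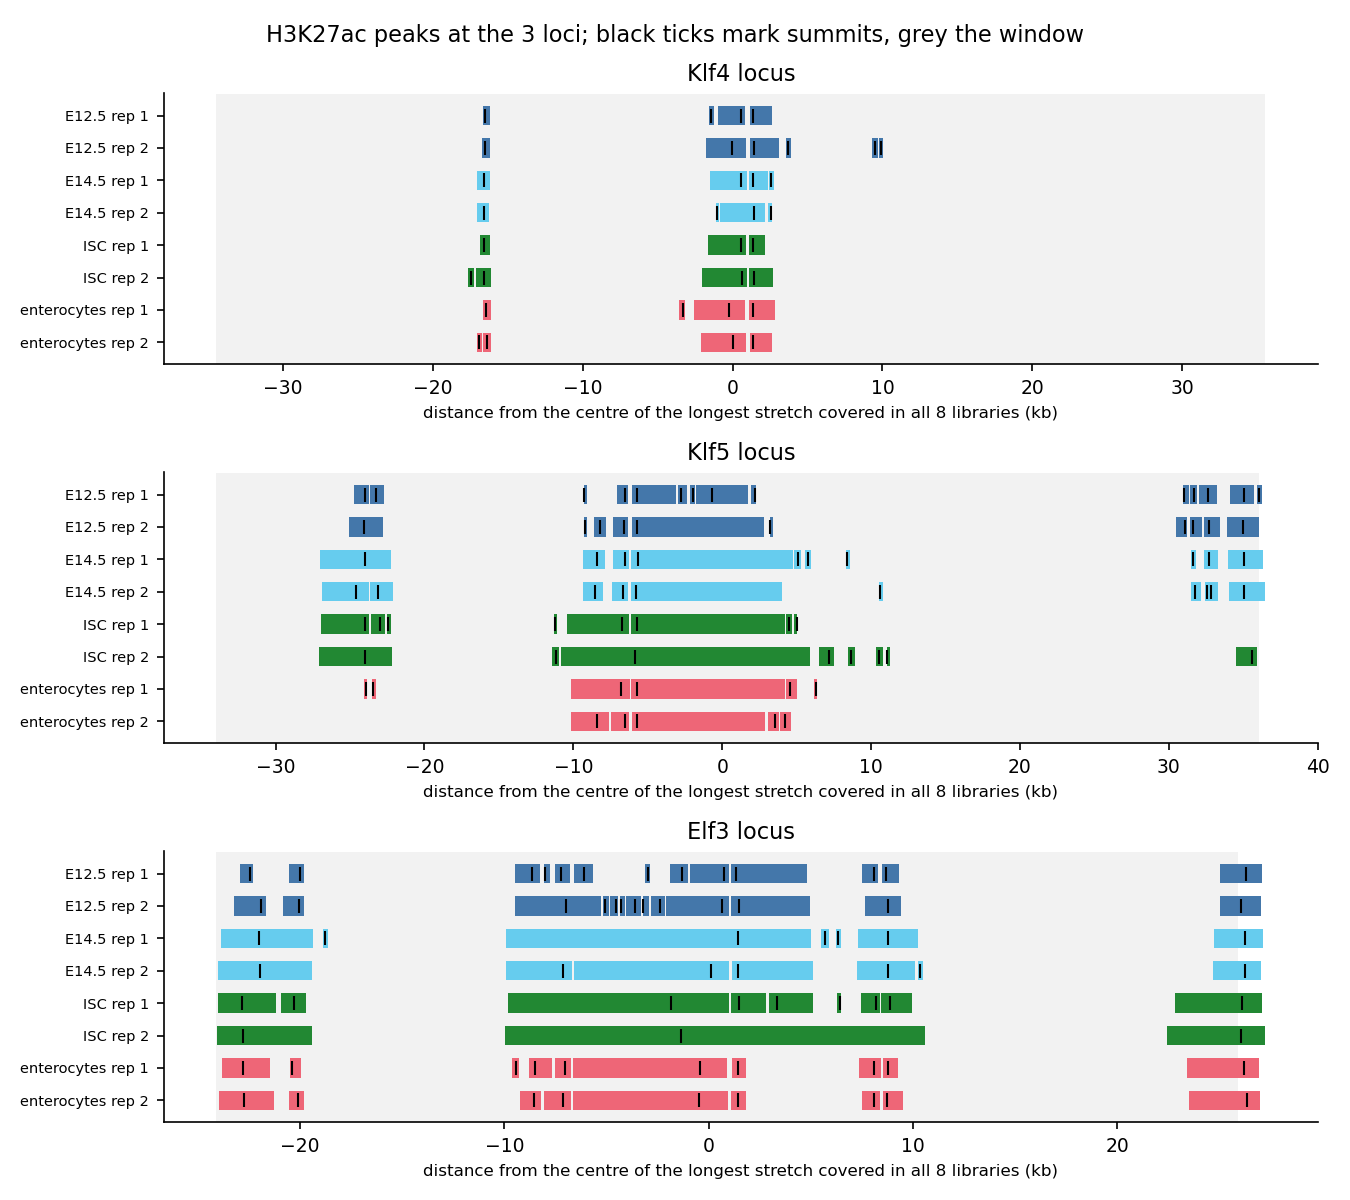
Peaks of the 8 libraries at the 3 loci, drawn as blocks by distance in kb from the centre of the longest stretch covered in all 8, with black ticks at summits and the window in grey. The left element of Klf5 is nearly absent from enterocytes, its right element has blocks in the 4 embryonic libraries and ISC replicate 2, and the right-edge peak of Elf3 reaches further left in adult libraries.

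At Klf4 most of the covered length lay in a core element, in every library. The core, at chr4:55540864-55548335, was covered over 3.61 and 4.97 kb in the E12.5 libraries, 4.09 and 3.43 kb in the E14.5 libraries, 3.55 and 4.59 kb in the ISC libraries, and 5.57 and 4.52 kb in the enterocyte libraries. A smaller element to its left, at chr4:55526769-55528343, had 0.442 and 0.514 kb, 0.908 and 0.774 kb, 0.652 and 1.39 kb, and 0.580 and 0.872 kb. Its shortest coverage was in both E12.5 and 1 enterocyte library. The bins that hold these elements were the only Klf4 bins tested, and neither was called in the main fit (adjusted p = 0.380 for the left and 0.789 for the core element in E14.5 vs E12.5). A last element, chr4:55553756-55554465, appeared only in E12.5 replicate 2, as a pair of peaks of 0.365 and 0.230 kb that rank at the 9.47 and 8.14 percentile of that list.

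The Klf4 core had a similar inner shape in most libraries. Its longest stretch covered in all 8 libraries was chr4:55543641-55545262, of 1.62 kb. Between it and the next stretch common to all lay 364 bp, chr4:55545263-55545626, of which 159 to 364 bp were free of peaks in 7 of 8 libraries. E14.5 replicate 2 was the exception, where 1 peak of 2.96 kb ran across this gap. The strongest Klf4 peak by the authors' −log10 q had its summit at 55545826 to 55545892, just right of the gap, in 6 lists. In ISC replicate 2 and enterocytes replicate 2 the strongest summit was left of the gap, at 55545061 and 55544459. These peaks ranked at the 80.7 to 86.4 percentile of their list in the embryonic and ISC libraries, and at 94.0 and 92.6 in enterocytes.

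At Klf5 the central domain was shared by all groups. It lay at chr14:99692529-99712892 and was covered over 8.76 and 11.3 kb in the E12.5 libraries, 14.6 and 12.6 kb in the E14.5 libraries, 15.3 and 18.7 kb in the ISC libraries, and 15.3 and 14.2 kb in the enterocyte libraries. E12.5 was lowest, and its libraries did not overlap with any other group. The strongest Klf5 peak had its summit between 99698147 and 99698294 in all 8 lists, at the 96.9 to 99.9 percentile of the list and with the authors' fold enrichment between 11.4 and 34.6. Just left of it, 109 to 238 of the 255 bp at chr14:99697654-99697908 were free of peaks in 7 of 8 libraries, all but ISC replicate 2. The longest stretch covered in all 8 libraries was chr14:99702231-99705728, of 3.50 kb.

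The left part of the central Klf5 domain was longer in adult cells. In the bin at chr14:99690001-99700000, coverage was 3.08 and 4.21 kb in the E12.5 libraries, 4.73 and 4.61 kb in the E14.5 libraries, 6.51 and 7.33 kb in the ISC libraries, and 6.07 and 5.87 kb in the enterocyte libraries. All 4 adult libraries lay above all 4 embryonic ones. The adult vs embryo difference was 0.59 on the log2 scale (adjusted p = 0.00533) and held under every setting tried, with an adjusted p of at most 0.0247. The ISC vs E14.5 difference was 0.52 (adjusted p = 0.0478). It did not hold without either E14.5, either ISC or either enterocyte library, where adjusted p reached 0.188. It was also lost with 100 bp added (adjusted p = 0.0548), with no filter on windows (adjusted p = 0.0544) and with a replicate block (adjusted p = 0.0576). The domain's left shoulder held 807 bp, chr14:99693826-99694632, covered in all 4 adult and in no embryonic library.

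The left element of Klf5, at chr14:99676932-99681870, was present in the embryo and in stem cells and nearly absent from enterocytes. It was covered over 1.95 and 2.33 kb in the E12.5 libraries, 4.77 and 4.72 kb in the E14.5 libraries, 4.42 and 4.87 kb in the ISC libraries, and 0.463 and 0 kb in the enterocyte libraries. E14.5 and ISC were high and overlapped, E12.5 lay below them, and both enterocyte libraries were under all others. In the bin at chr14:99670001-99680000, which holds the left side of the element, enterocytes were 2.67 lower than ISC on the log2 scale (difference -2.67, SE 0.17, adjusted p = 0.000465). In the next bin, at chr14:99680001-99690000, the enterocytes vs ISC difference was -1.70 (SE 0.26, adjusted p = 0.00568). Both held under every setting tried (adjusted p at most 0.00706 and 0.0362). Since both enterocyte libraries are at or near 0 in these bins, the size of the fitted difference depends on the 500 bp added.

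The left part of the same element grew between the embryonic days. In the bin of its right part, chr14:99680001-99690000, the E14.5 vs E12.5 difference was 0.42 on the log2 scale. It was not called (limma adjusted p = 0.420). Coverage in the bin at chr14:99670001-99680000 was 0.765 and 1.12 kb in the E12.5 libraries against 3.05 and 2.91 kb in the E14.5 libraries. The difference was 1.28 on the log2 scale (SE 0.17, adjusted p = 0.00575). Leaving out either E14.5 library ended the call, at an adjusted p of 0.0564 without replicate 1 and 0.0541 without replicate 2. On the left of the element, chr14:99677087-99678884, of 1798 bp, was covered in both E14.5 and both ISC libraries and in no other. On its right the same held for shorter stretches of 100 bp (chr14:99681247-99681346) and 218 bp (chr14:99681492-99681709). In adult vs embryo these bins were called lower, at -0.67 (adjusted p = 0.00545) and -0.74 (adjusted p = 0.0176), although the ISC and E14.5 libraries overlapped in both. The second of these calls was lost without either E12.5, either E14.5 or the first ISC library (adjusted p up to 0.0595), and with 100 bp added in place of 500 (-1.37, adjusted p = 0.0548).

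The right element of Klf5, at chr14:99734440-99740460, was mainly embryonic. It ran past the window's end, 99740000, in all 4 embryonic libraries, and in E12.5 replicate 1 the last summit, at 99740041, lay outside. The element is measured here with its bases past the end. It was covered over 4.11 and 4.81 kb in the E12.5 libraries, 3.61 and 3.89 kb in the E14.5 libraries, 0 and 1.36 kb in the ISC libraries, and 0 kb in both enterocyte libraries. The mean was 4.11 ± 0.513 kb over embryonic libraries and 0.341 ± 0.682 kb over adult ones (SD, n = 4 each), with no overlap. In the bin at chr14:99730001-99740000 the adult vs embryo difference was -2.63 on the log2 scale (adjusted p = 0.00314, at most 0.0167 under the other settings). With 3 of 4 adult libraries at 0, this size also depends on the 500 bp added. The ISC vs E14.5 difference of -2.003 (adjusted p = 0.0485) rested on ISC libraries of 0 and 1.36 kb, and was lost without either library of E12.5, E14.5 or enterocytes, at adjusted p up to 0.178. It was also lost with the same number of peaks per library (adjusted p = 0.0792), with 100 bp added (adjusted p = 0.118) and with no filter on windows (adjusted p = 0.0551). The peaks of this element were modest, between the 22.6 and 75.2 percentile of their lists.

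Regions gained or lost outright, by presence in all libraries of one group and none of the other, occurred only at Klf5 among the 3 loci. For E14.5 vs E12.5, 1 of 23 merged regions was gained or lost (18.3% of all regions), and chr14:99734440-99735333 was the one lost. For ISC vs E14.5 it was 3 of 17 (23.1%), with chr14:99692529-99693021 gained and chr14:99735453-99736105 and chr14:99736341-99737298 lost. For enterocytes vs ISC it was 1 of 17 (23.9%), the loss of the same chr14:99692529-99693021. For adult vs embryo it was 1 of 22 (7.02%), the loss of chr14:99735388-99737409, which is 2.02 kb long. With all peaks and libraries used, the loci's share exceeded that of all regions in none of the 4 comparisons. At −log10 q of at least 10, the loci's share lost in adult vs embryo was 18.2%, against 4.33% of all regions. Counts changed when a library was left out, and so did the shares of all regions in the same direction, given in brackets. The rule is easier to meet when a group is reduced to 1 library. In E14.5 vs E12.5, regions gained became 6 of 23 without E14.5 replicate 2 (25.2%) and 2 of 19 without E14.5 replicate 1 (21.0%). Regions lost became 4 of 24 without E12.5 replicate 1 (19.8%). In ISC vs E14.5, 4 of 17 were gained without ISC replicate 1 (29.4%) and 4 of 21 lost without ISC replicate 2 (21.0%). In enterocytes vs ISC, regions lost became 7 of 17 without ISC replicate 1 (46.5%) and 4 of 19 without ISC replicate 2 (34.2%). Without enterocytes replicate 1, 2 of 15 were lost (20.2%). Without enterocytes replicate 2, 2 were gained, a count for which no share is given. In adult vs embryo, 2 of 23 were lost without E12.5 replicate 1, which is 8.70% against 6.68% of all regions. Without ISC replicate 2 it was 2 of 24, which is 8.33% against 7.28%.

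At Elf3 the central domain, chr1:137144156-137164668, was the longest merged region of the 3 loci. Coverage was 11.6 and 15.6 kb in the E12.5 libraries, 18.5 and 17.8 kb in the E14.5 libraries, 17.3 and 20.5 kb in the ISC libraries, and 12.3 and 12.6 kb in the enterocyte libraries. E14.5 and ISC overlapped and lay above both other groups, and enterocytes fell within the range of E12.5. In ISC replicate 2 the whole 20.5 kb was called as 1 peak, against 10 peaks in each E12.5 library. The longest stretch covered in all 8 was chr1:137153195-137155017, of 1.82 kb. To its right a gap of 116 to 210 bp, within chr1:137155018-137155227, was free of peaks in 6 of 8 libraries, all but E14.5 replicate 1 and ISC replicate 2.

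Right of that gap part of the Elf3 domain was not covered in enterocytes. Their coverage resumed further right, where chr1:137161733-137162385 and chr1:137162643-137163368 were covered in all 8 libraries. Bases covered in all 6 other libraries and in neither enterocyte library made up 944 bp at chr1:137155944-137156887 and 1878 bp at chr1:137157060-137158937. The enterocyte peaks that start beside the gap were 0.679 and 0.755 kb long. In the bin at chr1:137150001-137160000 coverage was 6.76 and 8.62 kb in the E12.5 libraries, 9.51 and 9.05 kb in the E14.5 libraries, 8.89 and 10.0 kb in the ISC libraries, and 5.70 and 5.80 kb in the enterocyte libraries. Both enterocyte libraries were the lowest of the 8. The enterocytes vs ISC difference was -0.67 (SE 0.13, adjusted p = 0.0124), and with scaling by total covered length it was -0.027 (adjusted p = 1). It was also lost without ISC replicate 2 or either enterocyte library, at adjusted p up to 0.0709. In the bin to the right, chr1:137160001-137170000, the difference of -0.78 (adjusted p = 0.0471) was lost under most settings, leaving out any library but ISC replicate 1 among them (adjusted p up to 0.170), and was -0.20 with scaling (adjusted p = 0.307).

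The left element of Elf3, chr1:137130027-137135459, grew from E12.5 to E14.5. It was covered over 1.38 and 2.57 kb in the E12.5 libraries, 4.73 and 4.59 kb in the E14.5 libraries, 4.09 and 4.64 kb in the ISC libraries, and 2.94 and 3.41 kb in the enterocyte libraries. Both E12.5 libraries were below all others. The E14.5 vs E12.5 difference of its bin, chr1:137130001-137140000, was 1.104 (SE 0.24, adjusted p = 0.0282). It was lost without either E14.5 or either enterocyte library (adjusted p up to 0.150) and with only peaks of −log10 q of at least 10 (1.37, adjusted p = 0.129).

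The peak at the right edge of the Elf3 window was longer in adult than in embryonic libraries. Its summit lay past the window's end in every library, and its assignment to Elf3 was not tested. The element, chr1:137176549-137181349, was 1 peak in every library and ran past the end of the window. Its length was 2.06 and 2.01 kb in the E12.5 libraries, 2.41 and 2.35 kb in the E14.5 libraries, 4.25 and 4.80 kb in the ISC libraries, and 3.51 kb in both enterocyte libraries. The mean was 2.21 ± 0.2007 kb over embryonic libraries and 4.02 ± 0.626 kb over adult ones (SD, n = 4 each), and the ranges did not overlap. In the bin at chr1:137170001-137180000 the adult vs embryo difference was 1.12 (adjusted p = 0.000175, at most 0.00194 under the other settings). The ISC vs E14.5 difference was 1.15 (SE 0.11, adjusted p = 0.000931, at most 0.0131 under the other settings). The added length lay on the left of the peak, where chr1:137177594-137178784, of 1191 bp, was covered in all 4 adult and no embryonic library.

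Between the adult types the right-edge peak gave no stable difference. Enterocytes were at -0.35 against ISC in that bin (adjusted p = 0.0496), and at 0.23 (adjusted p = 0.364) with scaling. Of the 8 fits that left out 1 library, only the one without ISC replicate 1 kept the call. The peak was also the strongest of those that overlap the Elf3 window in 6 lists, with a summit at 137180169 to 137180433, past the end of the window. In both E12.5 lists the strongest was the peak right of the central gap, with summits at 137155457 and 137155582, and the edge peak stood at the 79.7 and 86.0 percentile. In the other 6 lists the edge peak was at the 97.8 to 99.9 percentile. Rnpep, the next gene in the gene table, codes for an aminopeptidase, and whether the edge peak belongs to it or to Elf3 was not tested.

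**Figure D4:**
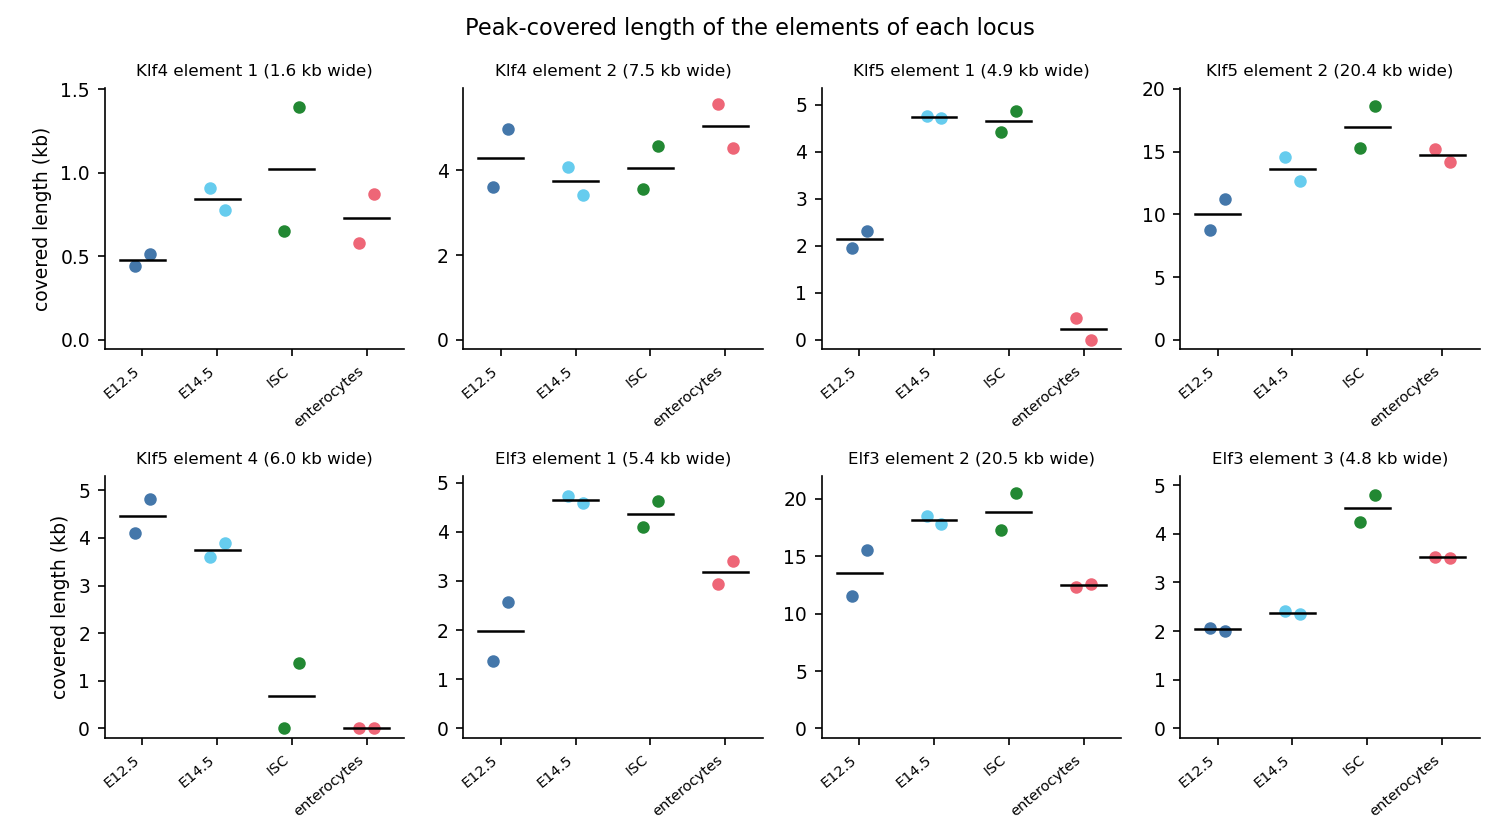
Covered length (kb, vertical axis) of 8 elements of the 3 loci in the 4 groups, 1 point per library. Klf5 element 1 is at 0.463 and 0 kb in enterocytes, Klf5 element 4 at 0 to 1.36 kb in adult libraries, and Elf3 element 3 at 3.51 to 4.80 kb in adult against 2.01 to 2.41 kb in embryonic libraries.

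Base by base, much of the acetylated sequence of the loci was common to all groups. Bases covered in all 8 libraries made up 36.2% of the bases covered in at least 1 library at Klf4, 29.4% at Klf5 and 33.2% at Elf3, against 13.4% over the genome. Of merged regions, 6 of 22 had a peak in all 8 libraries, against 15.5% of all 79482 regions. They were chr4:55527341-55528343 and chr4:55541862-55547573 at Klf4, chr14:99693163-99709922 at Klf5, and chr1:137130027-137134728, chr1:137144156-137164668 and chr1:137176549-137181349 at Elf3. Windows with broad domains cover more bases in every library, and no test of these shares was made.

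The variable bases were of different kinds at the 3 loci. At Klf5, 7.19% of bases were covered in E14.5 and ISC only and 5.63% in all embryonic and no adult libraries (genome 1.68% and 4.86%). At Elf3, 10.4% were covered in all libraries but those of enterocytes, and none in all 4 embryonic and no adult libraries (genome 5.99% and 4.86%). Bases in all adult and no embryonic libraries were 3.59% at Klf5 and 4.12% at Elf3 (genome 2.69%). At Klf4 all these kinds were at or under 0.308%, and 32.2% of its bases were covered in 1 library, against 23.5% over the genome.

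**Figure D5:**
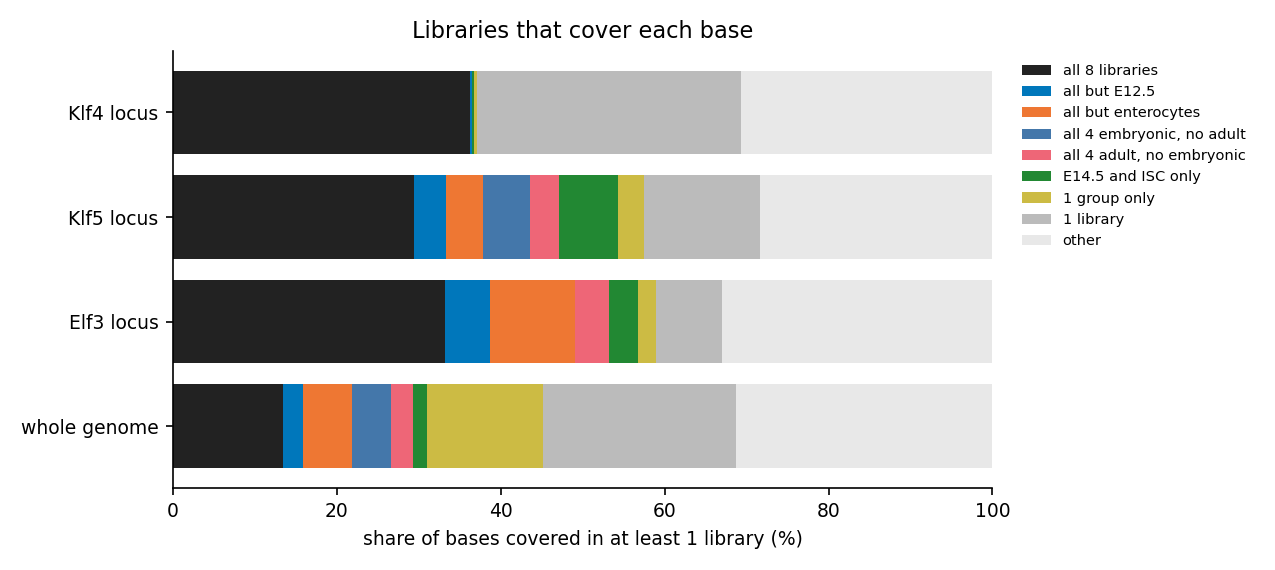
Share of bases covered in at least 1 library (%, horizontal axis) by which libraries cover them, for the Klf4, Klf5 and Elf3 loci and the whole genome. Bases of all 8 libraries make up 36.2%, 29.4% and 33.2% at the loci and 13.4% in the genome.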

How the data were processed

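H3K27ac ChIP-seq was analysed in 8 libraries (4 groups of 2), with 8 inputs that the authors used in calling peaks. The build was mm9 and the tools were Bowtie 1.1.2, bcl2fastq 1.8.4, MACS2 and SAMtools 1.2, per the submitters' processing notes. Per the file headers, MACS 2.1.0.20140616 called peaks per library against its input at a q-value of 0.05, from tags of 51 bp with at most 1 tag kept per position. The deposited lists give each peak's length, its fold enrichment ratio, its −log10 q and −log10 p, and a coverage signal (pileup). All are the authors' values, used for ranks and filters inside 1 list.

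Covered length was summed per locus, per 10-kb bin and over all genome windows of the locus's width. limma 3.58.1 in R 4.3.3 was fitted, with trend and robust variance, to log2(covered bp + 500) in windows that 2 or more libraries had a peak in. All 8 libraries shared 1 estimate of the spread, with 4 group means, and p-values were adjusted over all windows. Covered length was not scaled in the main fit, because a window caps it. The script was tested on simulated data. A single value was tested by exact permutation. Regions are peaks merged where they overlap or touch. The text names the longest region, regions gained or lost, regions present in all 8 libraries, and called bins. The elements, gaps and base-by-base stretches were chosen after their values were seen. The loci and tests were chosen with earlier results of these data known. The alternatives were scaling by total covered length, −log10 q of at least 10, the same number of peaks per library (35614), 100 bp added, no filter, a replicate block and leaving out each library. For regions they were joining within 1 kb and presence at 50% cover. No cell type markers could be placed on mm9 here, so the sorted types were not checked.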

Additional observations from a re-analysis of the deposited data

Results flagged for a closer look

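Peak numbers, which split or join with small changes in coverage, held the only values that stood apart from their group of 4 by Dixon's criterion at the 95% level. At Klf4, E12.5 replicate 2 had 6 peaks against 4 in each of the other embryonic libraries, and ISC replicate 1 had 3 peaks against 4 in each of the other adult libraries. At Klf5, E12.5 replicate 1 had 14 peaks against 10 in each of the other embryonic libraries. At Elf3, ISC replicate 2 had 3 peaks against 9 or 10 in the other adult libraries, 1 of them the 20.5-kb peak over the central domain. Chance alone marks about 1 in 20 groups of continuous values. That rate does not apply to the first 3, where the other libraries are tied and any different count is marked, down to 3 against 4 peaks. In covered length no library of these groups stood apart in this way.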

How the results depend on the processing

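With covered length scaled by each library's total, the locus difference for enterocytes vs ISC went to 0.82 at Klf4 and reversed to 0.095 at Klf5 and 0.13 at Elf3, and adult vs embryo went to 0.32 at Klf4 and 0.32 at Elf3 and reversed to 0.13 at Klf5. Scaling also gave 2 bins higher and 2 lower in enterocytes vs ISC and 6 higher in adult vs embryo, turned the Elf3 bin from 137170001 to 0.23 in enterocytes vs ISC, and turned the Klf5 permutation difference to 1.798 kb. With the same number of peaks per library, Klf5 adult vs embryo turned to 0.0088 (0.225 kb in the permutation test). Elf3 then passed the test for E14.5 vs E12.5 (0.62, adjusted p = 0.0467) and enterocytes vs ISC (-0.53, adjusted p = 0.0419). In that setting 4 bins were higher in E14.5 vs E12.5 and 0 lower in ISC vs E14.5, against 4281 and 5449 of all 36983 bins. With 100 bp added or no filter, 1 bin was higher and 0 lower in ISC vs E14.5. Over all bins these were 5709 and 6505 of 41748 with 100 bp, and 5664 and 6483 of 48703 with no filter. Without the filter 3 were lower in enterocytes vs ISC, against 12230 of all 48703.

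Regions lost in E14.5 vs E12.5 fell to 0 when peaks within 1 kb were joined, at −log10 q of at least 10, with the same number of peaks, and at 50% cover. Under the last 2, 1 of 14 and 1 of 23 were gained (12.2% and 15.5% of all regions). Regions gained in ISC vs E14.5 fell to 0 under all 4. Those lost became 0 (1 kb) and 1 of 15 (same number, 13.2% of all regions), and were 2 of 10 by −log10 q (10.5% of all regions). Regions lost in enterocytes vs ISC fell to 0 (1 kb, same number). Those lost in adult vs embryo became 0 (1 kb) and 2 of 11 (−log10 q), which is 18.2%, against 4.33% of all regions. The cause was not tested for any of these.

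Leaving out 1 library gave, for E14.5 vs E12.5, ISC vs E14.5, enterocytes vs ISC and adult vs embryo in turn, -0.37 to 0.16, -0.11 to 0.35, -0.049 to 0.41 and 0.023 to 0.29 at Klf4, 0.24 to 0.57, -0.14 to 0.22, -0.75 to -0.39 and -0.13 to 0.047 at Klf5, and 0.33 to 0.77, 0.024 to 0.25, -0.65 to -0.43 and 0.032 to 0.25 at Elf3. Counts of called bins changed in every comparison, as did the calls over all bins. Regions gained ranged over 0 to 6, 1 to 4, 0 to 2 and 0 to 0, and regions lost over 1 to 4, 2 to 4, 1 to 7 and 1 to 2. The shares of all regions changed as well, as given above for most of these counts. The permutation difference ranged from 0.336 to 1.013 kb at Klf4, -2.60 to 1.18 kb at Klf5 and -0.057 to 3.59 kb at Elf3. Where this leaves 1 library in a group, that library is assumed to vary like the other groups.

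The labels' replicate numbers gave no clear pairing of the libraries. In 70-kb windows, deviations of replicate 1 from the group means correlated at -0.191 between E12.5 and E14.5. They correlated at -0.104 between E14.5 and ISC, at 0.0946 between E12.5 and ISC, and less in size between other groups. With the replicate block, 1 bin was higher in ISC vs E14.5 and 3 were lower in enterocytes vs ISC (5526 and 12503 of all 41748 bins). With the E14.5 numbers crossed, 2 were higher and 5 lower (6598 and 14902 of all bins). The crossing was chosen after seeing the data, as were the alternatives to the permutation test. Depth per region is unknown from peak lists, so a short peak that is missing in 1 library may lie just under the caller's threshold.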

Other observations

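Windows of the same width whose covered length was most like that of each locus over the 8 libraries were found by the root mean square difference, and nothing is said of their function. For Klf4 the closest was chr9:45710001-45780000, at 0.546 kb. For Klf5 it was chr6:136710001-136780000, at 0.812 kb, with 14.3 and 17.1 kb in the E12.5 libraries, 23.5 and 21.5 kb in the E14.5 libraries, 19.3 and 24.9 kb in the ISC libraries, and 16.6 and 13.1 kb in the enterocyte libraries. For Elf3 it was chr5:66450001-66500000, at 0.668 kb, with 14.4 and 17.8 kb, 24.2 and 23.3 kb, 23.3 and 29.0 kb, and 17.2 and 18.4 kb in the same order. The next were chr17:80570001-80640000 for Klf4 (0.582 kb), chr12:85470001-85540000 and chr17:28420001-28490000 for Klf5 (1.401 and 1.63 kb), and chr17:47550001-47600000 and chr14:55000001-55050000 for Elf3 (1.49 and 2.02 kb).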
